A study of Mus musculus with 20 samples.

Results

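The peaks described here lie around 3 mouse genes that hold preadipocytes back from becoming adipocytes: Dlk1, Gata2 and Sox9. They were taken by position, as all peaks of 19 deposited peak lists that fall in the mm9 windows chr12:110620000-110850000 (Dlk1, 230 kb), chr6:88080000-88220000 (Gata2, 140 kb) and chr11:112560000-112740000 (Sox9, 180 kb). The genes and windows themselves were chosen with earlier results of these data known. The windows held 99 of the 284878 peaks of the series: 47 in the Dlk1 window, 8 in the Gata2 window and 44 in the Sox9 window. No peak crossed the edge of a window. Each gene names its window as a working label. No annotation of mm9 was used here, so the start and end of the genes within the windows are not given, and a peak in a window is not assigned to the gene.

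The cells were 3T3-L1, a clonal mouse preadipocyte line that accumulates fat after hormonal induction. Day 0 cells had been confluent for 2 days and had received no inducer. From then until day 2 the medium held dexamethasone, which activates the glucocorticoid receptor GR, together with fetal bovine serum, 3-isobutyl-1-methylxanthine and insulin. After day 2 it held insulin and fetal bovine serum, and later fetal bovine serum. DNase I hypersensitive site sequencing (DHS-seq), which finds open chromatin, was done on day 0 (labelled preadipocyte), at 2 hours and 4 hours (early stage), on day 1 and day 2 (intermediate stage) and on day 6 (mature adipocyte). Chromatin immunoprecipitation sequencing (ChIP-seq) mapped 7 proteins. RNA polymerase II (RNA Pol II) and C/EBPdelta were mapped on day 0 and at 4 hours, and C/EBPbeta at these times, at 2 hours and on day 2. GR, Stat5a and RXR were mapped at 4 hours, and PPARgamma on day 2 and day 6.

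Dlk1, also called Pref-1, is a membrane protein with EGF-like repeats whose shed ectodomain inhibits adipogenesis, and it is an imprinted gene. Sox9 is an HMG-box transcription factor that acts downstream of Dlk1 in preadipocytes and restrains the C/EBPbeta and C/EBPdelta genes. Gata2 is a zinc finger transcription factor that restrains the Pparg gene and can bind C/EBP proteins. The RNA of these genes is known to fall as the cells differentiate. Peak lists show where chromatin was open or a protein was bound and do not measure that RNA.

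Every group held 1 library, and each list gave the position of its peaks without a score or a read count. Depth is therefore unknown. A region counts here as kept, gained or lost only by being in a list or not. The lists differ in length from 2076 peaks (RXR) to 35389 (DHS day 1), and a shorter list can miss a region that a longer one holds. Overlapping peaks (by at least 1 bp) were merged into regions. Width, the only size the lists give, is not a measure of signal. Merged over all 19 lists, the windows held 29 sites: 12 in the Dlk1 window, 4 in the Gata2 window and 13 in the Sox9 window.

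Per length, the Dlk1 and Sox9 windows held more peaks than the chromosomes on average, and the Gata2 window held fewer. The average was taken over 2576.7 Mb, the span from the first to the last peak summed over chromosomes. A stretch as long as the Dlk1 window would hold 25.4 peaks on average (47 found), one as long as the Sox9 window 19.9 (44 found) and one as long as the Gata2 window 15.5 (8 found). A site in several lists counts several times here, and 1 site of the Sox9 window was in 11 lists. By merged sites the Dlk1, Sox9 and Gata2 windows held 12, 13 and 4 of 77867, and no average per length was taken for sites. The lower peak count of the Gata2 window is thus not shown to be a lower count of sites. The windows lie around genes, whereas the average covers the whole span. GR and both PPARgamma lists had no peak in any of the windows, and a stretch of the summed length of the windows would hold on average 0.871 GR peaks, 0.676 PPARgamma peaks of day 2 and 1.17 of day 6.

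**Figure D1:**
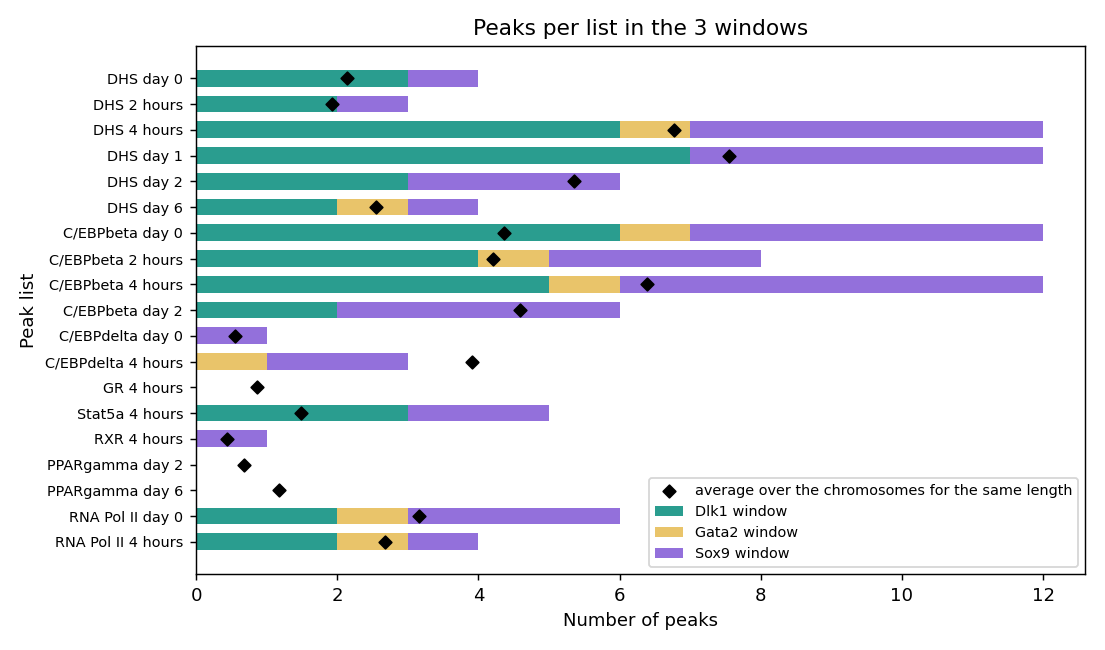
Number of peaks of each list (bars, split by window) in the Dlk1, Gata2 and Sox9 windows, with the average number for a stretch of the same summed length (diamonds); each list is 1 library, so there are no error bars. DHS of 4 hours and day 1, and C/EBPbeta of day 0 and 4 hours, reach 12 peaks each, and GR and PPARgamma have none.

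The starts of the genes are shown as reference sequence because RNA Pol II was listed at both times in each window. The RefSeq promoter table used here (build GRCm38.p6, 250 bases before to 50 after a transcript's start) held an entry for 2 of the 3 genes, Dlk1 and Gata2, and Gata2 had 2 starts. These are positions of another build than the peaks, so they were not compared with peak positions. Capitals mark matches, on either strand, to any of 5 motifs searched. TTGCNNAA is a C/EBP motif, ACANNNTGT is the core of a GR element, and GATAAG is a motif of GATA factors. CCAAT is bound by the factor NF-Y, and the letters TATAAA are the TATA box. The sequences run 5′ to 3′ on the plus strand and come from chr12:109452573-109452872 (Dlk1), chr6:88193641-88193940 (Gata2, the first start) and chr6:88198414-88198713 (Gata2, the second start).

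Dlk1: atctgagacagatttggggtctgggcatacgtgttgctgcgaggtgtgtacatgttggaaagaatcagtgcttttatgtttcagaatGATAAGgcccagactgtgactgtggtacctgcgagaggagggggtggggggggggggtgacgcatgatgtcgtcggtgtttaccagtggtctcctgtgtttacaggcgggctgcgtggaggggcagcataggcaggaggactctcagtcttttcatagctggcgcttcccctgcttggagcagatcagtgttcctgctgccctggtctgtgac
Gata2, the first start: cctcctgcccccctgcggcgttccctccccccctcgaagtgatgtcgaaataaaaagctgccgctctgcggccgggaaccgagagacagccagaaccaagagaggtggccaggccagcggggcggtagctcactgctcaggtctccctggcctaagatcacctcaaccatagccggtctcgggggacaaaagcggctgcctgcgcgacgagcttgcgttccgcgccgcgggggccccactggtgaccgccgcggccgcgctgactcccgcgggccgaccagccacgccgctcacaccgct
Gata2, the second start: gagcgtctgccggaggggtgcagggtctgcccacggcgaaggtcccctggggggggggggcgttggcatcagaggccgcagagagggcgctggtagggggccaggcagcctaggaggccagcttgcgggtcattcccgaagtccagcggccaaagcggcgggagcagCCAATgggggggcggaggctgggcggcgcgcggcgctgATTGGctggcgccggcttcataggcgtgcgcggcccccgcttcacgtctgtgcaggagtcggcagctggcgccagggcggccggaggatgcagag

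Counted from 1 at the 5′ end, the Dlk1 sequence held GATAAG once, at base 88 on the plus strand, a motif found in 7.44% of the 32851 promoters of the table. The second Gata2 sequence held CCAAT on the plus strand at base 168 and its reverse complement at base 206 (37.4% of promoters hold the motif on either strand), and the first Gata2 sequence held none of the 5 motifs. TTGCNNAA, present in 10.8% of promoters, ACANNNTGT (6.85%) and TATAAA (13.6%) were absent from these 3 stretches. The Gata2 sequences were rich in G and C (69.3% and 73.7%) with 32 and 29 CpG dinucleotides, and the Dlk1 sequence was 55.7% G and C with 9 CpG. The medians over all promoters were 52.7% and 7. None of the marked matches overlapped another.

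In the Dlk1 window, all 3 open regions of day 0 were listed at 4 hours, on day 1 and on day 2. Of these, 1 was not listed at 2 hours, and another was no longer listed on day 6. The first, chr12:110655359-110656630, was in all 6 DHS lists. Its DHS peak was 970 bp wide on day 0, 867 bp at 2 hours, 1272 bp at 4 hours, 1075 bp on day 1, 802 bp on day 2 and 535 bp on day 6. Only 4.36% of day 0 peaks, 3.31% of 4 hours peaks and 3.29% of day 1 peaks were wider, against 36.0% on day 6. The same site held RNA Pol II on day 0 (524 bp) and at 4 hours (600 bp), and C/EBPbeta on day 0 (795 bp) and at 4 hours (639 bp). C/EBPbeta was not listed there at 2 hours or on day 2.

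The other open regions of day 0 lay close together towards the high-coordinate end of the Dlk1 window, 142 kb and 145 kb from the widest RNA Pol II peak of day 0. At chr12:110833751-110834865, DHS peaks were listed on day 0 (599 bp), at 4 hours (851 bp), on day 1 (936 bp), day 2 (793 bp) and day 6 (478 bp), and not at 2 hours. C/EBPbeta was there at each of its 4 times, 923 bp wide on day 0, 486 bp at 2 hours, 688 bp at 4 hours and 554 bp on day 2. The neighbouring site chr12:110836768-110837632 was open on day 0 (580 bp), at 2 hours (708 bp), 4 hours (853 bp), day 1 (716 bp) and day 2 (651 bp) and is the one not listed on day 6. It held C/EBPbeta on day 0 (610 bp) and at no later time. A Stat5a peak of 479 bp, chr12:110834871-110835349, lay between them. Stat5a, a factor activated by cytokine and growth hormone signals, had 3 peaks in this window.

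The widest RNA Pol II peak of day 0 in the Dlk1 window, chr12:110691547-110692102 (556 bp), was listed again at 4 hours (634 bp). Open chromatin at this site was listed at 4 hours only, as a peak of 314 bp that overlaps the RNA Pol II peak. That peak was among the narrowest of its list, of which 95.6% was wider. C/EBPbeta was bound 318 bp away, at chr12:110692421-110693010, on day 0 (590 bp) and at 2 hours (457 bp), and was no longer listed at 4 hours or on day 2. In the lists, C/EBPbeta was present here at earlier times than the DHS peak. It did not overlap that peak and lay on the other side of the RNA Pol II peak. The DHS lists of day 0 and 2 hours held 9989 and 9055 peaks, against 31751 at 4 hours. An earlier narrow DHS peak could thus be missing from them, and the order was not tested.

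**Figure D2:**
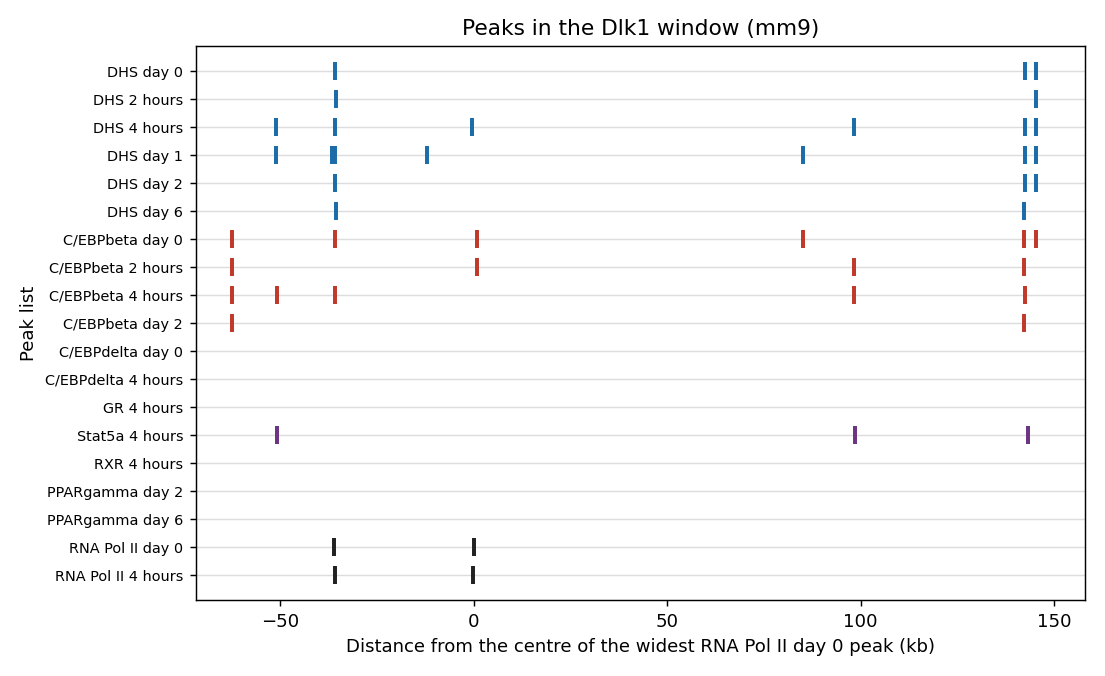
Peaks of the 19 lists (rows) in the Dlk1 window, by distance in kb from the centre of the widest RNA Pol II day 0 peak; each tick marks a peak's centre and its thickness is not to scale. The DHS column near -36 kb runs through all 6 times, and the column near 145 kb ends at day 2.

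Away from these sites, the Dlk1 window held a further 4 C/EBPbeta sites. At chr12:110629035-110629709 it was listed at all 4 times (594, 613, 607 and 535 bp), with no DHS peak at any time. At chr12:110640550-110641298 and chr12:110789906-110790543 it was absent on day 0 and present at 4 hours (749 and 521 bp), each time with Stat5a (605 and 518 bp) and with a DHS peak at 4 hours (448 and 451 bp). The second of these was already bound by C/EBPbeta at 2 hours (576 bp), and the first was also in the DHS list of day 1 (425 bp). Both had left the DHS lists by day 2. At chr12:110776742-110777218, C/EBPbeta was listed on day 0 only (429 bp) and a DHS peak on day 1 only (391 bp). That DHS peak was narrow for its list, of which 78.2% was wider. C/EBPbeta was not mapped on day 1, and the DHS lists of day 0 and day 1 held 9989 and 35389 peaks. The order was not tested. A further 2 DHS peaks of day 1, at chr12:110654898-110655245 and chr12:110679530-110679910, had no other peak.

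In the Sox9 window, open chromatin of day 0 was a single region, and it stayed listed at all 6 times. Its DHS peak was 548 bp wide on day 0, 474 bp at 2 hours, 646 bp at 4 hours, 580 bp on day 1, 631 bp on day 2 and 376 bp on day 6. These peaks were of middling or small width in their lists, with 34.7% (day 1) to 79.6% (2 hours) of peaks wider. RNA Pol II covered the same place on day 0 (chr11:112643209-112643946, 738 bp) and at 4 hours (686 bp). C/EBPdelta was listed there on day 0 (466 bp), its only day 0 peak in the windows, and was not listed at 4 hours.

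A flank of this Sox9 region was listed as open at 3 of the 6 times. Besides the kept peak, a second DHS peak was listed at 4 hours (chr11:112642739-112643190, 452 bp), on day 1 (331 bp) and on day 2 (413 bp), and not on day 0, at 2 hours or on day 6. The lists that held it are the 3 longest DHS lists, with 31751, 35389 and 25097 peaks, of which 81.8%, 89.9% and 89.2% were wider, so its absence from the shorter lists was not shown to be closed chromatin. C/EBPbeta lay on this flank on day 0 (458 bp) and at 4 hours (509 bp), and was not listed there at 2 hours or on day 2. At 4 hours the flank and the kept peak share 1 bp, and the flank of 4 hours also overlaps the end of the day 0 peak (chr11:112643185-112643732). The flank and the kept peak are therefore counted as 1 region. Where peaks are joined only if they share 50% or more of the narrower one, the flank counts on its own, and the number of DHS regions gained by 4 hours over the 3 windows is 8 in place of 7. Further DHS peaks of 4 hours alone lay on both sides, at chr11:112641062-112641496 and chr11:112644514-112645034.

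**Figure D3:**
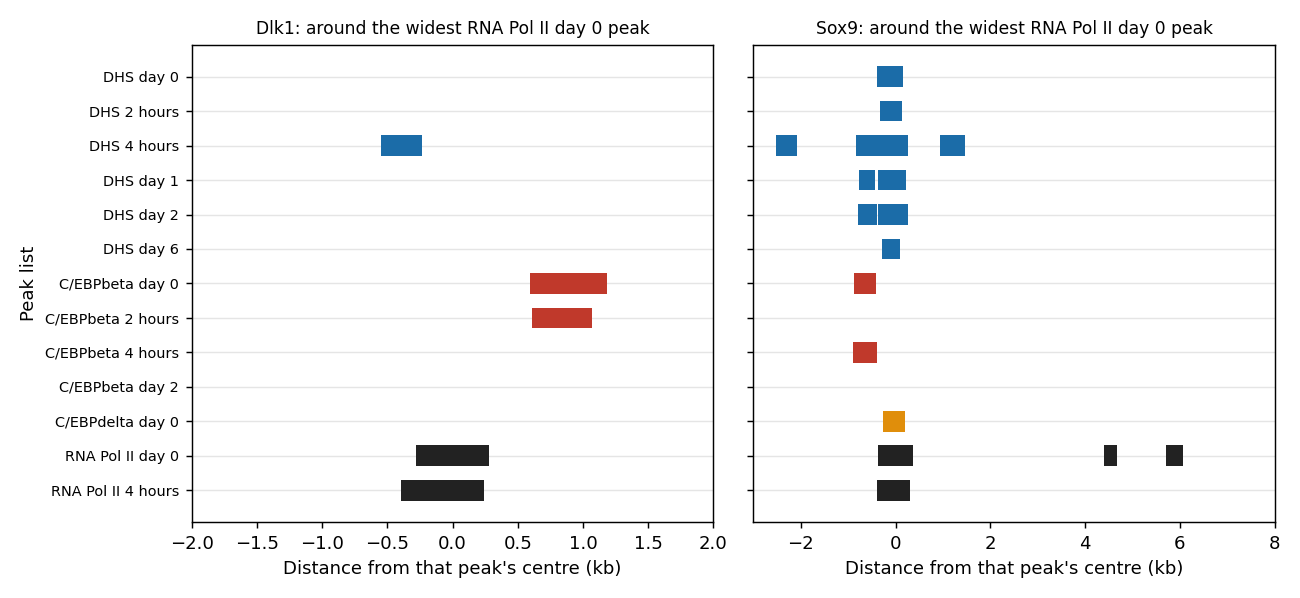
Peaks near the widest RNA Pol II day 0 peak of the Dlk1 (left) and Sox9 (right) windows, drawn to scale by distance in kb from its centre, with lists as rows. The DHS peak of Dlk1 appears at 4 hours only and C/EBPbeta on day 0 and at 2 hours; in Sox9 a DHS peak is listed at all 6 times where RNA Pol II is listed on day 0 and at 4 hours, with a second DHS peak on its left at 4 hours, day 1 and day 2.

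RNA Pol II had 3 peaks in the Sox9 window on day 0 and 1 at 4 hours. The peaks no longer listed were chr11:112647974-112648251 (278 bp) and chr11:112649292-112649647 (356 bp), whose centres lie 4.54 kb and 5.89 kb from the centre of the kept one. Both were narrow for their list, of which 84.4% and 75.8% was wider. They were the only RNA Pol II peaks of the 3 windows that differed between the times.

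The site with most factors in the 3 windows lay in the Sox9 window, 39.5 kb from the widest RNA Pol II day 0 peak. At chr11:112682659-112683477, C/EBPbeta was listed at each of its 4 times (670 bp on day 0, 631 bp at 2 hours, 630 bp at 4 hours and 550 bp on day 2). At 4 hours it held C/EBPdelta (708 bp), Stat5a (456 bp) and RXR (568 bp) as well, the last being the partner of PPARgamma and other nuclear receptors. GR was the only factor of 4 hours not listed there, and PPARgamma was not listed on day 2 or day 6. DHS peaks were listed on day 1 (295 bp) and day 2 (461 bp) and not at 4 hours, when 4 factors were bound. Both were narrow for their lists, of which 93.2% and 81.4% was wider. The absence of a DHS peak at 4 hours was not shown to be closed chromatin.

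A similar site, chr11:112695475-112696417, held C/EBPbeta at all 4 times (930, 471, 572 and 611 bp), and C/EBPdelta (851 bp) and Stat5a (441 bp) at 4 hours. Its day 0 C/EBPbeta peak was wide, with 3.92% of that list wider, and its DHS peak was listed on day 1 alone (569 bp). At chr11:112711951-112712454, C/EBPbeta was listed on day 0 (491 bp), at 2 hours (451 bp) and at 4 hours (477 bp), with a DHS peak at 4 hours only (500 bp). The remaining C/EBPbeta sites of the Sox9 window had no DHS peak. These were chr11:112598320-112598810 (day 0), chr11:112573167-112573745 (4 hours and day 2), chr11:112653274-112653656 (4 hours) and chr11:112718839-112719302 (day 2). A DHS peak of day 1 at chr11:112679197-112679705 had no factor.

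**Figure D4:**
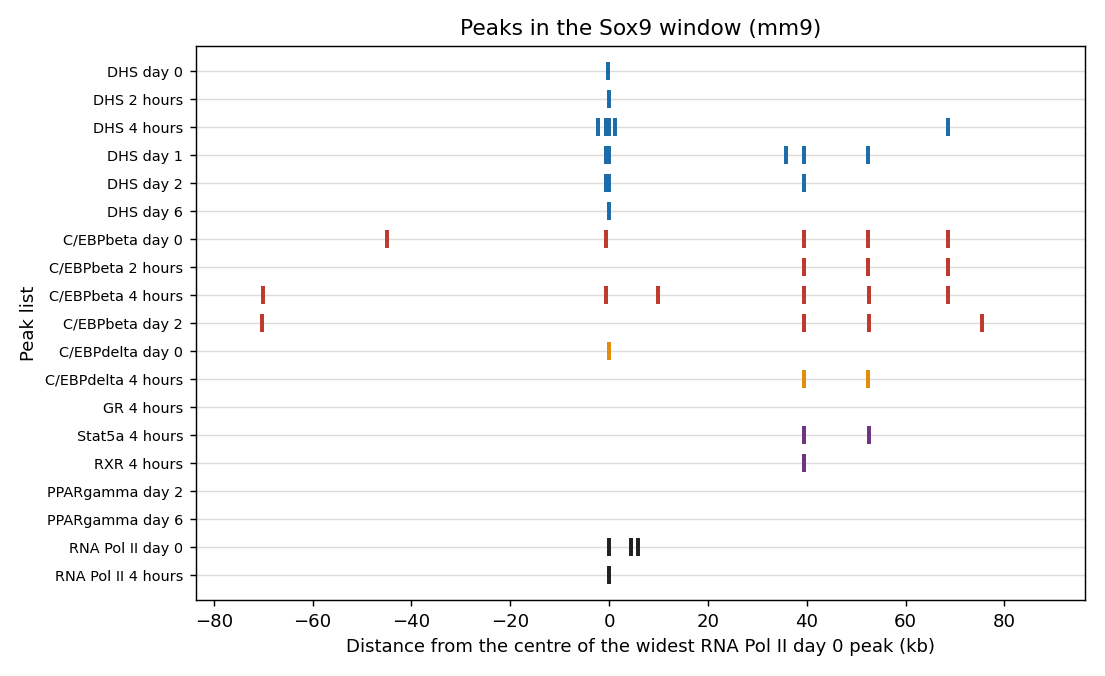
Peaks of the 19 lists (rows) in the Sox9 window, by distance in kb from the centre of the widest RNA Pol II day 0 peak; each tick marks a peak's centre and its thickness is not to scale. C/EBPbeta, C/EBPdelta, Stat5a and RXR line up near 39 kb at 4 hours, where narrow DHS peaks are listed on day 1 and day 2.

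The Gata2 window held 8 peaks in 4 sites that did not overlap each other. RNA Pol II was listed at chr6:88148456-88149025 on day 0 (504 bp) and at 4 hours (509 bp), with no DHS peak there at any time. The only open regions were chr6:88153106-88153648 (543 bp) at 4 hours, 4.6 kb from the RNA Pol II peak, and chr6:88090169-88090705 (537 bp) on day 6. No DHS peak was listed in this window on day 0, at 2 hours, on day 1 or on day 2. C/EBPbeta was listed at chr6:88086035-88086658 on day 0 (522 bp), at 2 hours (591 bp) and at 4 hours (594 bp), and not on day 2. C/EBPdelta joined it at 4 hours (438 bp), and no DHS peak was listed there. Of the 3 windows, this is the only one in which no RNA Pol II peak overlapped a DHS peak.

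**Figure D5:**
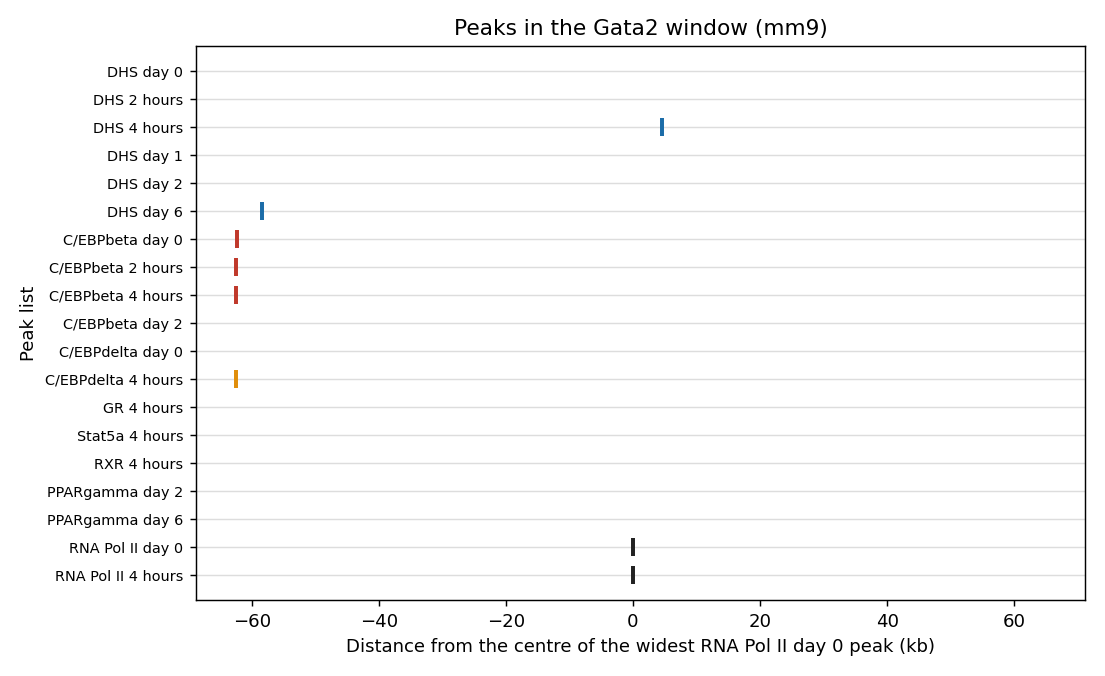
Peaks of the 19 lists (rows) in the Gata2 window, by distance in kb from the centre of the widest RNA Pol II day 0 peak; each tick marks a peak's centre and its thickness is not to scale. RNA Pol II stands at 0 kb at both times, C/EBPbeta near -62 kb at 3 of its 4 times, and a single DHS peak appears at 4 hours and another on day 6.

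Over the 3 windows, DHS regions were added to the lists by 4 hours and none left them. Of 18 DHS regions (9 in the Dlk1 window, 2 in Gata2 and 7 in Sox9), 7 were listed at 4 hours and not on day 0, or 38.9% (exact 95% interval 17.3 to 64.3), and the share over all DHS regions of the genome was 47.2%. None was lost by 4 hours (1.29% over the genome), 1 was lost by day 6 (5.82%), and 2 were in all 6 lists (8.76%). Only the 4 regions listed on day 0 could be lost. All 4 were listed at 4 hours (interval 39.8 to 100), against 93.8% of the day 0 regions of the genome. On day 6, 3 of the 4 were listed (interval 19.4 to 99.4), against 72.1%. None of the 7 gained regions was listed on day 2 or day 6 (interval 0 to 41.0), against 43.8% of the gained regions of the genome. That count rests on the merging: with the Sox9 flank counted on its own it is 1 of 8 (interval 0.316 to 52.7), against 43.6% over the genome in that setting. The 4 hours peaks of the 7 gained regions were 314 to 543 bp wide, all narrower than the median of their list (599 bp). The genome share covers gained regions of all widths, and a comparison at like width was not made. The lists of 4 hours and day 0 held 31751 and 9989 peaks, and the gain of regions cannot be told apart from this difference in length. With each DHS list cut to its 9055 widest peaks, no region was gained and 1 was lost.

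C/EBPbeta regions were both gained and lost by 4 hours. Of 17 regions over its 4 lists (8 in the Dlk1 window, 1 in Gata2 and 8 in Sox9), 4 were gained by 4 hours (23.5%, interval 6.81 to 49.9; 36.3% over the genome) and 4 were lost (23.5%; 13.5% over the genome). Only the 12 regions listed on day 0 could be lost. Of these 12, 8 were also listed at 4 hours (66.7%, interval 34.9 to 90.1), against 72.7% over the genome. Of the lost ones, 3 were in the Dlk1 window and 1 in the Sox9 window, and of the gained ones 2 were in each of these windows. A further 4 regions, 2 in the Dlk1 window and 2 in the Sox9 window, were bound at all 4 times (22.5% over the genome). The balance of gained and lost regions moved with the setting. Windows widened by 50 kb on each side gave 7 gained and 4 lost, lists of equal length by width 2 and 6, and the wider 50% of each list 2 and 3.

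At none of its times did more than 50% of the C/EBPbeta peaks lie in open chromatin of that time, in the windows or over the genome. The DHS lists of day 0 and 2 hours held 9989 and 9055 peaks, against 20471 and 19703 in the C/EBPbeta lists. List length therefore limits the shares of these times. On day 0, 3 of 12 C/EBPbeta peaks were in the DHS list (25.0%, interval 5.49 to 57.2; 15.5% over the genome), all of them in the Dlk1 window. At 2 hours none of 8 was (interval 0 to 36.9; 22.0% over the genome), at 4 hours 6 of 12 (50%, interval 21.1 to 78.9; 45.6%), and on day 2 it was 2 of 6 (33.3%; 42.4%). At 4 hours these 6 were 4 of 5 peaks in the Dlk1 window and 2 of 6 in the Sox9 window, while the peak of the Gata2 window was outside.

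GR was at none of the 13 regions that held any of C/EBPbeta, C/EBPdelta, GR, Stat5a or RXR at 4 hours (interval 0 to 24.7), against 11.5% over the genome. The nearest GR peak lay 75.7 kb beyond the Dlk1 window, 100.1 kb beyond the Gata2 window and 86.8 kb beyond the Sox9 window. Stat5a was at 5 of the 13 regions (38.5%, interval 13.9 to 68.4; 19.6% over the genome), of which 3 were in the Dlk1 window and 2 in the Sox9 window. Regions with 3 or more factors numbered 2 (15.7% over the genome) and regions with 4 or more numbered 1 (7.00%), all in the Sox9 window.

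RNA Pol II was listed at both times in 4 of 6 regions (66.7%, interval 22.3 to 95.7; 41.5% over the genome), with at least 1 such region in every window. All 6 were listed on day 0, whereas the 41.5% also counts regions listed at 4 hours only. Of the day 0 regions of the genome, 54.1% were listed again at 4 hours. RNA Pol II was lost by 4 hours at 2 regions (35.2% over the genome), both in the Sox9 window, and gained at none (23.3%). Of the 4 kept regions, 2 overlapped a DHS peak in all 6 lists (1 in the Dlk1 window and 1 in Sox9; 29.7% over the genome), 1 in the 4 hours list only (Dlk1; 2.06%) and 1 in none (Gata2; 11.5%). Leaving out the shares of DHS, C/EBPbeta and RNA Pol II regions of day 0 listed again later, 22 shares were set beside a genome share in these comparisons. Of these, 21 had an interval that includes it, and the exception is the 0 of 7 gained DHS regions listed on day 2 or day 6. That share was added after the data were examined. With an overlap of 50% or more its interval includes the genome share (0.316 to 52.7 against 43.6%), as with wider windows (0.253 to 44.5 against 43.8%). With a gap of 500 bp it does not (0 to 41.0 against 44.1%). The 4 hours peaks of those 7 were narrow for their list. The shares left out of this tally had intervals that include their genome share. The intervals cover counting over regions in these libraries only, and regions of a window are not replicates.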

How the data were processed

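Of 20 samples, 19 come with a list of peaks that the authors deposited, 6 from DHS-seq and 13 from ChIP-seq, giving chromosome, start and end with no score. Peaks lie on mm9, per the submitters' processing notes. Aligner, peak caller, threshold and depth are not given in the sources used here. The input control was not analysed here.

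Samples were grouped by their titles, with 1 library per group, so no test between times was made. Overlapping peaks (at least 1 bp) were merged into regions: over the 6 DHS, the 4 C/EBPbeta, the 5 factor lists of 4 hours, the 2 RNA Pol II lists, or all 19 lists. Counts in the windows stand beside the same share over the genome, with Clopper-Pearson (exact) 95% intervals. Positions are counted from 1. Regions named with a position were those in all 6 DHS lists, with RNA Pol II, with 3 or more factors at 4 hours, or open on day 0 and not at 4 hours or on day 6. The windows held so few sites that the others were named too, after their values were seen. The promoter motifs were also chosen after the peaks were seen. Alternatives were another overlap, a gap of 500 bp, 200 bp peaks, the wider 50% of each list, equal list length and wider windows. Genes and windows were chosen with earlier results of these data known. Merging was tested on simulated data. Intervals were computed with SciPy 1.17.1 and figures drawn with Matplotlib 3.10.9, under Python 3.11.15.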

Additional observations from a re-analysis of the deposited data

How the results depend on the processing

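Of 58 alternative counts over the 3 windows, 46 stayed within 1.5 times the reported count and 12 did not. A different overlap, a gap of 500 bp or peaks of 200 bp moved none of these 58 beyond it. With the wider 50% of each list only, which leaves fewer peaks, there was 1 DHS region gained by 4 hours, 2 lost by day 6 and 1 in all 6 lists. In the same setting 2 C/EBPbeta regions were gained and 0 RNA Pol II regions were lost by 4 hours. With lists of equal length by width, 0 DHS regions were gained and 1 was lost by 4 hours, 2 were lost by day 6, 1 was in all 6 lists, and 2 C/EBPbeta regions were gained. Windows widened by 50 kb on each side take in more sites, and held 7 C/EBPbeta regions and 1 RNA Pol II region gained by 4 hours. Gained DHS regions listed on day 2 or day 6, a count added after the data were examined, numbered 0 as reported. They numbered 1 with an overlap of 50% or more or peaks of 200 bp (1 of 8 each), with the wider 50% of each list (1 of 1) and with wider windows (1 of 10). At equal list length no region was gained, so this count has no value there. GR stayed at 0 in each of the 4 alternatives run for it. Of 174 counts for single windows, 23 moved beyond the same tolerance. No paired analysis was possible because each group held 1 library. Read depth is unknown, so a region missing from a list was not shown to be closed or unbound.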

Other observations

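The nearest GR sites outside the windows differed in what else they held. Beyond the Sox9 window, chr11:112471734-112473196 held GR at 4 hours together with PPARgamma of day 2, C/EBPbeta of 4 hours and day 2, and DHS of 4 hours, day 1 and day 2, and was in 7 lists. Beyond the Gata2 window, chr6:88320057-88320918 was in 14 of the 19 lists, among them all 6 DHS lists, all 4 C/EBPbeta lists, GR, RXR and PPARgamma of day 2. Beyond the Dlk1 window, chr12:110925680-110926434 held GR and C/EBPbeta of 4 hours and no DHS peak. The nearest PPARgamma peak of day 6 lay 656.4 kb beyond the Dlk1 window, 286.5 kb beyond the Sox9 window and 51.9 kb beyond the Gata2 window. At the last of these, chr6:88271780-88272584, PPARgamma was listed on day 2 and day 6 and DHS on day 1 and day 2. No gene was assigned to these sites.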
